A study of Homo sapiens and Mus musculus with 21 samples.

Results

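The stability ratios describe how the decay of HEK293T transcripts compared between PCIF1 knockout (KO) and wild-type (WT) cells, as 1 number per gene. All 666 entries of the authors' deposited SLAM-seq table were taken, each with a ratio of KO over WT and a transcript start class, out of 58381 genes in the input RNA table of the same study. The table lists CABIN1 under both an A and a G start, with the same ratio, so 665 of the entries are distinct symbols. All entries code for protein per the file headers.

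The study removed PCIF1 from HEK293T, a transformed human embryonic kidney line, and collected 21 libraries. SLAM-seq RNA was labelled with 4-thiouridine and taken after 0, 6 and 12 h of chase with uridine, in 1 KO and 1 WT library at each time. Input RNA of a ribosome profiling experiment came from 3 KO and 2 WT libraries, and the deposited m6A lists used here came from 2 KO and 1 WT miCLIP libraries. The groups differ in PCIF1 alone per the labels, which do not say whether KO libraries are separate clones or cultures. The level of PCIF1 RNA was not analysed here, so the genotype labels were not checked.

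Most human mRNAs begin with a cap followed by a first transcribed base that carries a 2'-O-methyl group. Where that base is adenosine, PCIF1 can add a methyl group at its N6 position and so make m6Am. An m6A inside the transcript is made by another enzyme complex, built around METTL3, and is known as a mark that can shorten the life of an mRNA. SLAM-seq reads the age of RNA from the base conversions that 4-thiouridine leaves in the sequence, and a chase shows how fast labelled transcripts are lost.

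The authors' deposited table does not state which quantity was divided to give the ratio. A value above 1 is read here only as a higher value in KO, and the single chase times were not analysed here. With 1 ratio per gene and 1 library per genotype and time, no ratio has an error, and genes were described by counts, medians and quartiles without a test.

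Each gene carries a class for its first base: A, C, G or T, or m6Am for an A start with the cap-adjacent methylation. The sequences at the listed starts were read from RefSeq (GRCh38.p14) in transcript direction, with the base at the listed start in capitals, because they show how the class letter was read. On the plus strand the letter is the first base of the transcript. The 4 plus-strand genes shown have the highest ratio of their class among genes whose listed start is also the RefSeq start.
MSI2, class A, chr17:57255839-57255863: cggtgtggagccAgagccagagaga
MSL3, class C, chrX:11758147-11758171: ctccgccattccCggccccccccgg
ALDH5A1, class G, chr6:24494957-24494981: gcccgcttgcctGtttcctgtcgcc
BLOC1S6, class T, chr15:45587548-45587572: cgcggcccgggcTgggtgtgagggg

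On the minus strand the letter is the complement of that base. The 5 minus-strand genes below were chosen by ratio under the same conditions. They are the highest and, where there is more than 1 such gene, the lowest of their class.
PTBP3, class C, chr9:112333014-112333038: ctgtttaccggcGaggtggggcgag
MDN1, class C, chr6:89819782-89819806: ccgtcccgagctGatgacgtcaaac
GRB10, class G, chr7:50705289-50705313: ggaaggtgtgaaCgcaactttgcct
EIF4G3, class G, chr1:21111371-21111395: aattctttccagCaatcccacagag
RCAN1, class T, chr21:34524625-34524649: taaaccagtatcAttttagagagtt

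For 2 m6Am genes, the highest and the lowest of 7 whose listed start is a RefSeq start with A, the base is preceded by a pyrimidine, as it is in all 7.
FHL1, class m6Am, chrX:136147521-136147545: cggagggggctcAgtccgcagccgc
ARMC10, class m6Am, chr7:103075128-103075152: agctcagaccccAtttcctttctcc

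The letters followed this pattern throughout the genes that RefSeq sequences cover and whose deposited window is 161 bases long. Of 338 plus-strand genes with a class of A, C, G or T, 338 had the letter as the transcript's base. Of 20 minus-strand genes, 20 had its complement. The authors' deposited translational efficiency table showed the same in windows of that length, with 68 of 68 plus-strand and 61 of 61 minus-strand genes. Windows of 160 bases, which belong to A and m6Am entries, place the start less exactly: 20 of 31 plus-strand genes of class A had an A there. Of the m6Am genes, 11 of 35 plus-strand genes with such a window and 11 of 29 with the longer one had an A at the listed base. How the classes were assigned is not given in the sources used here, and they may have been taken from the authors' region list, so the overlap is given as a description only: 91 of 96 m6Am genes had one of the authors' strict m6Am regions within 50 nt of the listed start, against 0 of 570 other genes. SLC11A2, which has the lowest ratio of the table, is listed with T and has an A at its start in RefSeq.

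Nearly all members lie on the plus strand and are long. The table held 607 plus-strand genes (91.1%) and 59 minus-strand genes, against 49.5% on the plus strand of the 765 genes of the efficiency table and 51.0% of RefSeq protein-coding genes with a strand. The median gene length was 88.0 kb in the SLAM-seq table, against 20.1 kb in the efficiency table and 24.2 kb over RefSeq protein-coding genes. The median ratio was 0.852 for the minus-strand genes and 0.895 for the plus-strand genes. The rule by which the genes entered the table is not given in the sources used here.

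Ratios spread on both sides of 1, with more genes below than above it. In the authors' deposited table the median over the 666 genes was 0.891, the quartiles were 0.652 and 1.18, and the values ran from 0.164 to 3.96. Of all genes 264 (39.6%) had a ratio above 1. A ratio above 1.5 was found for 93 genes (14% of the table) and one below 1 over 1.5 for 177 genes (26.6%). PKM, the pyruvate kinase of glycolysis, lay just above the upper bound at 1.51 and PGAP2 just below it at 1.48, while MIGA1 (0.666) and DEPDC5 (0.668) stood on either side of the lower bound. The split depends on where the scale is centred: with each ratio divided by the median ratio, 117 genes lay above 1.5 and 128 below its inverse. No other zero point is given in the sources used here.

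The highest ratios belonged to genes of several functions. RAB3IP, an activator of the Rab8 GTPase in membrane traffic, had 3.96 and ELP4, a subunit of the Elongator complex that modifies tRNA, had 3.35. They were followed by PLCXD1 at 3.29, GSTZ1, an enzyme of tyrosine breakdown, at 3.11, and DLG1, a scaffold protein of cell polarity, at 3.07. FHL1, a LIM domain protein, had 2.997, PLS1, an actin-bundling plastin, 2.86, and LSR, a lipoprotein receptor that also lies at cell junctions, 2.78. FDFT1, squalene synthase in the cholesterol pathway, had 2.75, and BIRC5, the survivin of the chromosomal passenger complex, 2.68. Of these 10 genes 6 are listed with an A start, 2 with m6Am, 1 with G and 1 with T. PLCXD1 had 0 counts in each of the 5 input libraries, so its RNA level could not be set beside its ratio. VAMP7, a vesicle SNARE with a ratio of 1.60 that lies like PLCXD1 in the region shared by the sex chromosomes, also had 0 counts in each library. Input entries marked PAR in their name were left out before the counts were read. Whether the 0 counts of these genes stand for low RNA was not tested. Both genes were kept in the lowest tier of WT input described below. A count of 3 in these libraries is 0.503 to 0.665 CPM.

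SLC11A2, a transporter that brings iron into the cytoplasm, had the lowest ratio at 0.164. Next came CXorf57, named RADX in RefSeq and known as a single-strand DNA binding protein at replication forks, at 0.227, and ME2, the mitochondrial malic enzyme, at 0.239. ZNF576, a zinc finger gene, had 0.249, KMT2C, a histone H3K4 methyltransferase, 0.252, and TBL1X, a part of nuclear corepressor complexes, 0.260. SNX27, a sorting nexin of endosomes, had 0.272, TROVE2, which encodes the Ro60 RNA-binding protein, 0.278, CCDC117 0.283 and AHCYL2 0.292. Of these 10 genes 5 are listed with A, 2 with C, 2 with G, 1 with T and 0 with m6Am.

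The comparison of start classes addresses whether transcripts that begin with m6Am decay differently without the enzyme that makes it. The m6Am genes and the others had medians and quartiles close to each other. The median ratio was 0.889 over 96 m6Am genes (quartiles 0.648 and 1.26) and 0.891 over 570 other genes (quartiles 0.654 and 1.17). Ratios above 1 were found for 37 m6Am genes (38.5%) and 227 others (39.8%), those above 1.5 for 14 and 79, and those below 1 over 1.5 for 28 (29.2%) and 149 (26.1%). On the log2 scale the m6Am median minus that of the other starts was -0.0032.

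Against A starts alone the m6Am median lay lower, by -0.10 on the log2 scale. The 198 A genes had a median ratio of 0.954, the highest of the 5 classes, with 93 (47.0%) above 1, and 39 of the 93 genes above 1.5 were of this class. The 99 C genes had a median of 0.867, the 221 G genes 0.877 and the 52 T genes 0.856. Of the T genes 14 (26.9%) were above 1 and 3 above 1.5. With the 45 letters of minus-strand genes turned to the transcript's base, 13 T genes become A genes, and the medians were 0.953 for A, 0.888 for C, 0.865 for G and 0.857 for T. The quartiles of all classes overlap over most of their length, as in the plot by start class.

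**Figure D1:**
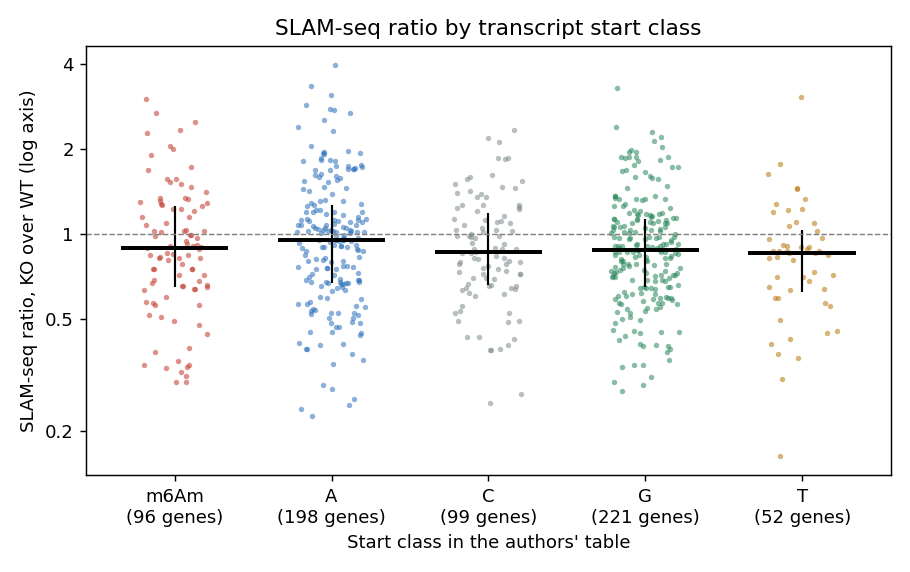
SLAM-seq ratio of KO over WT on a log axis for each gene (points) by start class in the authors' table, with the median (horizontal bar) and the quartiles (vertical line). The medians are 0.889 for m6Am, 0.954 for A, 0.867 for C, 0.877 for G and 0.856 for T, and every class holds ratios well above and below 1.

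Among the m6Am genes the highest ratios were those of FHL1 (2.997), BIRC5 (2.68), ARPC1B, a subunit of the actin-nucleating Arp2/3 complex (2.49), UBE2K, a ubiquitin-conjugating enzyme (2.33), and MAPKAPK3, a kinase downstream of p38 (2.28). The lowest were those of VPS45, a regulator of SNARE pairing at endosomes (0.298), ATP6AP2, an accessory protein of the vacuolar proton pump (0.299), NBR1, a receptor of selective autophagy (0.316), and PPP6R2, a regulatory subunit of protein phosphatase 6 (0.326). All 9 had a strict region at their listed start. The m6Am class thus ran from 0.298 to 2.997, and the A class from 0.227 to 3.96.

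The median ratio differed little with RNA level. The 659 genes found in the input table were cut into 3 tiers of equal size by their mean CPM in WT input, which is not corrected for transcript length. The median ratio was 0.906 in the lowest tier (up to 33.1 CPM), 0.893 in the middle tier and 0.876 in the highest (109 to 1099 CPM). For m6Am genes the medians were 0.844 (23 genes), 0.908 (32 genes) and 0.907 (39 genes), and for the other genes 0.913 (197 genes), 0.889 (187 genes) and 0.871 (181 genes), in the same order of tiers. The m6Am genes thus lay below the others in the lowest tier, by -0.11 on the log2 scale, and above them in the middle and highest tiers. A starts had medians of 1.001, 0.903 and 0.988. Over the 659 genes Spearman's correlation of the log2 ratio with WT CPM was -0.031, and with gene length over 666 genes it was 0.011. These correlations run across genes, which share all libraries and are not independent replicates.

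**Figure D2:**
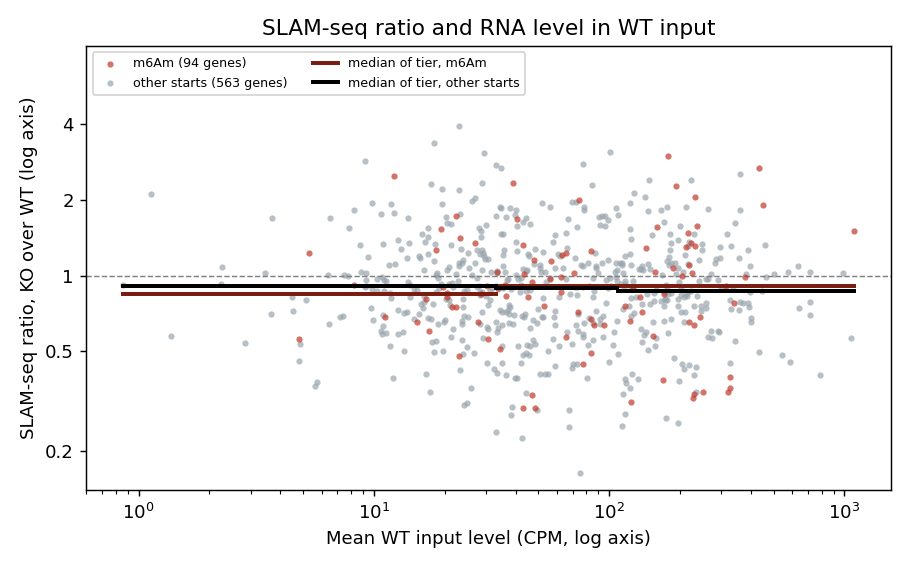
SLAM-seq ratio of KO over WT against the mean WT input level in CPM, both on log axes, for 94 m6Am genes and 563 genes of other starts with a WT level above 0. Horizontal lines mark the median ratio in each tier of the input level, and they lie between 0.844 and 0.913 for both groups.

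Genes with 5 or more m6A positions had a lower median ratio than genes with fewer. The positions of the KO and WT HEK293T lists were joined, each counted once, and given to the gene whose RefSeq span alone holds them, without regard to strand. They gave 6230 positions in 608 of the 666 genes. The median ratio was 0.922 over 58 genes with 0 positions, 0.965 over 189 genes with 1 to 4 and 0.855 over 419 genes with 5 or more. A ratio above 1.5 was found in 24.1%, 16.4% and 11.5% of these bins, and one below 1 over 1.5 in 22.4%, 22.8% and 28.9%. On the log2 scale the median of the highest bin minus that of the lowest was -0.11. It was -0.03 with a position given to every span that holds it, -0.04 with positions in all 3 lists, -0.06 with spans on the position's own strand, -0.18 with the first KO list alone and -0.21 with positions of at least 10 substituted reads. Spearman's correlation of the log2 ratio with the number of positions was -0.115 across the 666 genes.

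The bins also differ in how much RNA was sequenced, and a position needs reads to be listed. Their median WT input was 30.7, 40.3 and 80.8 CPM. Within the lowest tier of WT input the medians were 0.900 (31 genes), 0.916 (79 genes) and 0.898 (110 genes), so the bins were close together there. Within the middle tier they were 0.968 (21 genes), 0.973 (68 genes) and 0.787 (130 genes), and within the highest 0.977 (6 genes), 0.960 (38 genes) and 0.857 (176 genes). The part that read depth has in the difference was not tested. Among m6Am genes the medians were 0.840 (4 genes), 0.916 (31 genes) and 0.843 (61 genes), and among the others 0.922, 0.968 and 0.858.

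**Figure D3:**
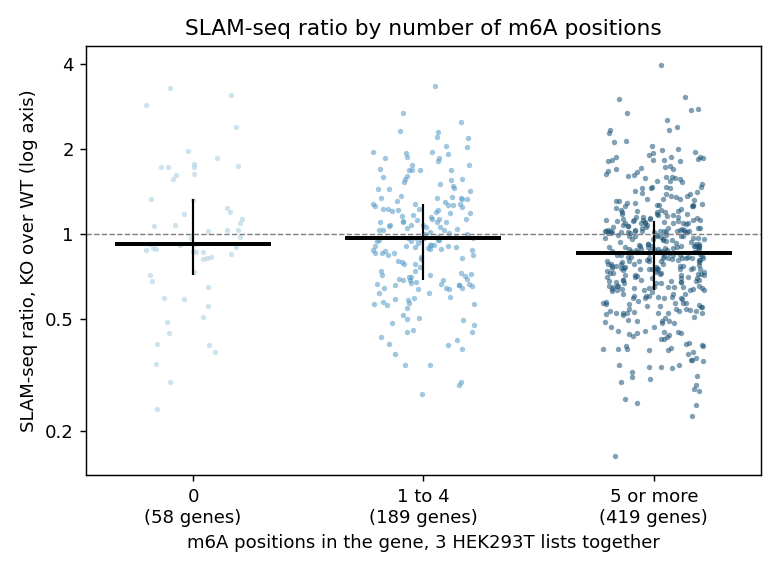
SLAM-seq ratio of KO over WT on a log axis for each gene (points) by its number of m6A positions in the joined HEK293T lists, with the median (horizontal bar) and the quartiles (vertical line). The bin of 5 or more positions has the lowest median, 0.855, against 0.922 and 0.965.

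Genes with very many positions were mostly below 1. NSD1, a histone H3K36 methyltransferase, held 82 positions and had a ratio of 0.779. FAM208B, named TASOR2 in RefSeq, held 65 and had 0.436. ALMS1, a protein of the centrosome and cilium base, held 56 with a ratio of 0.634, and ASXL1, a partner of the histone H2A deubiquitinase BAP1 and itself an m6Am gene, held 52 with 0.989. Over the 8 genes with 50 or more positions the median ratio was 0.742, and 2 of them were above 1. KMT2C, with 50 positions, was among the 10 lowest ratios of the whole table.

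Genes were also sorted by function into 35 lists made from gene symbols, to be read against 39.6% of all genes above 1 and a median of 0.891. The lists given here hold at most 25 genes, and no list was tested. Symbols do not always follow function, so a list can hold a member of another role. Genes of carbon metabolism were mostly above 1. Of 5 genes of glycolysis and the pentose phosphate pathway 4 were above 1, with a median of 1.31. ENO2, a neuronal enolase, had 1.96, and PFKM, the muscle isoform of phosphofructokinase and an m6Am gene, was the exception at 0.344. Of 7 genes of mitochondrial enzymes, import and fusion 5 were above 1, with a median of 1.30, from ACO1 (2.05), an aconitase of the cytosol that also binds iron-responsive RNA elements, to OGDH (0.600), a subunit of the 2-oxoglutarate dehydrogenase complex. Both cytosolic ribosomal protein genes of the lists were above 1, RPL37A at 1.82 and RPL14 at 1.03, and MRPL42, of the mitochondrial ribosome, was at 0.857. Of 3 genes of lipid and cholesterol synthesis, FDFT1 was at 2.75, SREBF2, the transcription factor of the pathway, at 0.782 and ACACA, acetyl-CoA carboxylase, at 0.725.

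The list of DNA damage repair and the p53 pathway leaves out other repair genes of the table, among them LIG3 (0.863), OGG1 (1.13) and PMS1 (1.05). They were singled out after their values were seen. None of the 6 genes in the list itself was above 1, and their median was 0.726. RAD17, a checkpoint clamp loader, was highest at 0.910 and MDM2, the ubiquitin ligase that removes p53, lowest at 0.569. The 3 genes of the DNA replication list were below 1 as well: ORC3, of the origin recognition complex, at 0.855, POLA1, the catalytic subunit of DNA polymerase alpha, at 0.649, and MCM8, a helicase of recombination repair, at 0.494. Both mitochondrial aminoacyl-tRNA synthetases were low, HARS2 at 0.675 and LARS2 at 0.396. Among 7 splicing genes the median was 0.732, from PTBP3, a splicing regulator, at 2.34 to HNRNPC, a protein that packs nascent transcripts and an m6Am gene, at 0.339.

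Transporters and chromatin genes were split. The list of ABC transporters and ion pumps, whose 9 members include lipid flippases, had a median of 0.697, from ATP2B4, a calcium pump of the plasma membrane, at 1.86 to ATP6AP2 at 0.299. The 11 solute carriers had a median of 1.03 with 6 above 1, from SLC39A10, a zinc importer, at 1.38 to SLC11A2 at 0.164. The list of histone lysine methyltransferases and demethylases had 7 members, among them PHF6, a PHD finger protein that is neither (0.727). Its median was 0.779, from KDM4C, a demethylase, at 1.22 to KMT2C at 0.252. The 10 chromatin remodelling and acetylation genes had 1.01 with 5 above 1, from CHD7 (1.81) to CHD3 (0.652), both of the CHD family of remodellers. Of 5 genes in the list of heat shock proteins and chaperones 2 were above 1, and SEC61A2 (1.19), listed here, is a subunit of the protein translocon. The median was 0.824, from DNAJC21 (1.59), a co-chaperone of ribosome assembly, to CCT5 (0.356), a subunit of the TRiC chaperonin and an m6Am gene.

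The large lists lay near the median of the table. The list of ubiquitin ligases and deubiquitinases, which also holds conjugating enzymes, had a median of 0.838 with 7 of 22 above 1, from BIRC5 to RNF123 (0.440), and mitosis genes 0.962 with 8 of 16 above 1, from BIRC5 to CEP78 (0.392), a centrosomal protein. Cytoskeleton genes had 0.979 with 11 of 23 above 1, and ANK2, an ankyrin that anchors membrane proteins to spectrin, was highest at 2.68. Growth factor and receptor signalling had 0.921 with 9 of 25 above 1, from the adaptor GRB10 (2.40) to the growth factor VEGFA (0.375). Adhesion and matrix genes had 0.816 with 4 of 10 above 1, from PTPRU (1.33) to PTPRK (0.365), both receptor tyrosine phosphatases. C2H2 zinc finger genes had 0.916 with 2 of 9 above 1, from ZNF227 (1.82) to ZNF576. The immediate early, replication-dependent histone, integrated stress response and proteasome lists had 0 members, so those groups could not be described.

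Genes of mRNA decay and of the m6A pathway lay on both sides of 1. Of 8 genes of decapping, deadenylation and decay 4 were above 1, and the median was 1.003. TNRC6C, a scaffold of miRNA silencing, had 1.67, AGO1, an Argonaute protein, had 0.569, and DCP2, the decapping enzyme, had 0.902. FTO, a demethylase of m6A and m6Am, had 1.07, and FMR1, which encodes the RNA-binding protein FMRP, had 0.754. The methyltransferase genes PCIF1, METTL3 and METTL14, the demethylase gene ALKBH5, the m6A reader genes YTHDF1, YTHDF2 and YTHDF3 and the decapping cofactor genes DCP1A and DCP1B are not among the members. Lists with 4 or fewer members included RNA helicases, with DDX42 at 1.35, DHX8 at 1.32, DDX19B at 0.865 and DDX11 at 0.453. Translation factors had EIF5 at 1.29, EIF4G3 at 1.21, EIF4EBP2 at 0.729 and EIF3C at 0.560.

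**Figure D4:**
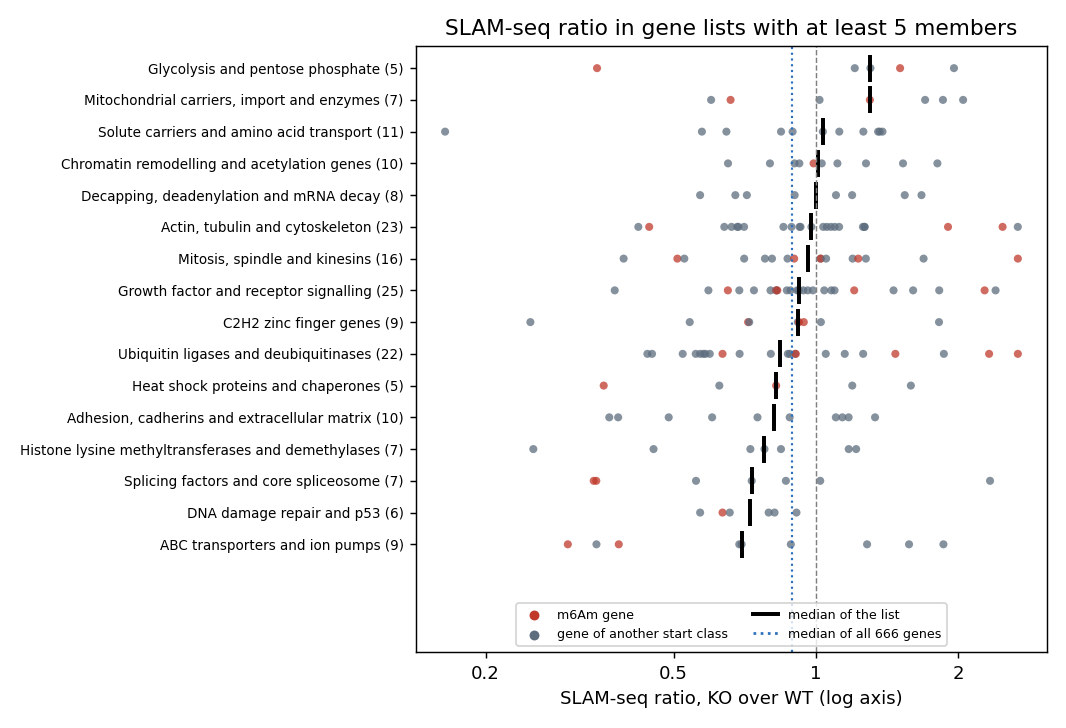
SLAM-seq ratio of KO over WT on a log axis for the members (points) of 16 gene lists with at least 5 members in the table, ordered by the median of the list (black bar), with the number of members in brackets. Red points are m6Am genes, and the dotted line marks the median of all 666 genes, 0.891; glycolysis and mitochondrial enzymes have the highest medians, 1.31 and 1.30, and ABC transporters and ion pumps the lowest, 0.697.

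Whether the ratio went along with RNA level was read in the input libraries, which are separate from those behind the ratio. Their totals were 5842630, 5638480 and 4511687 counts in KO replicates 1 to 3 and 5960674 and 5386307 in WT replicates 1 and 2. WT replicate 1 stood apart on the first principal component, which held 41.7% of the variance, at -40.2 against 2.22 to 16.3 for the other 4 libraries. Of 21 marker genes for neural, blood, endothelial, fibroblast and liver cells and general markers, VIM is named in the tables, with 341 to 376 CPM in each input library, so the cell type was not checked further. In bulk RNA, more cells with a transcript and more of it per cell cannot be told apart.

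No member passed edgeR's quasi-likelihood test in the input, with Benjamini-Hochberg adjustment over all genes. The test covered 655 members and called 0, against 5 of all 14629 genes (0.0342%). At an unadjusted p under 0.05 edgeR had 34 members higher and 70 lower in KO, or 5.19% and 10.7%, against 3.1% and 6.19% of all genes. DESeq2 called 1 member, RNF213, as lower in KO, against 15 of all genes. Leaving out either WT replicate leaves a sole WT library. The edgeR log2 fold change of RNF213 was then -0.49 without WT replicate 1 and -0.68 without WT replicate 2. The number of calls depended on the WT library left out, among members and among all genes alike.

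RNF213, a large ubiquitin ligase, had 193, 216 and 196 CPM in KO input, against 317 and 281 CPM in WT input. The KO values lay below both WT values. Its log2 fold change was -0.60 (SE 0.10, edgeR adjusted p = 0.0955), and its SLAM-seq ratio was 0.881. AP2B1, a subunit of the clathrin adaptor AP-2 and an m6Am gene, had 223, 234 and 215 CPM in KO, against 358 and 268 CPM in WT (log2 fold change -0.52, SE 0.12, edgeR adjusted p = 0.360), with a ratio of 0.907. LIG3, a DNA ligase, had 164, 158 and 164 CPM in KO, against 235 and 197 CPM in WT (log2 fold change -0.45, SE 0.11, edgeR adjusted p = 0.360), with a ratio of 0.863. For AP2B1 and LIG3 too the KO and WT values did not overlap. These genes were picked for the smallest unadjusted edgeR p in the same input counts, so a separation of the groups comes with the choice. The share of all genes without such an overlap was not counted.

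Genes at both ends of the ratio are given with their input levels. RAB3IP had 25.2, 22.3 and 23.5 CPM in KO, against 21.0 and 25.2 CPM in WT. BIRC5 had 420, 413 and 467 CPM in KO, against 424 and 447 CPM in WT. FHL1 had 170, 156 and 162 CPM in KO, against 188 and 166 CPM in WT. The groups overlapped in all 3 genes. At the other end SLC11A2 had 63.5, 64.4 and 56.7 CPM in KO, against 92.6 and 58.5 CPM in WT, with an overlap between the groups. KMT2C had 127, 139 and 123 CPM in KO, against 105 and 121 CPM in WT. In KMT2C, whose ratio was 0.252, each KO library lay above both WT libraries (log2 fold change 0.17, SE 0.11, edgeR adjusted p = 0.644). How many of all genes show such a separation was not counted.

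Over the 9 tested genes of the 10 highest ratios the input log2 fold changes ran from -0.16 to 0.57, and over the 10 lowest from -0.47 to 0.35. Of the 10 lowest, 3 had an unadjusted edgeR p under 0.05 and of the 10 highest 0; the smallest edgeR adjusted p were 0.513 and 0.596. The 3 are TBL1X and AHCYL2, lower in KO, and CXorf57, higher in KO.

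Input changes spanned a narrower range than the ratios and had no order with them. The measures are unlike, so their widths are not compared like for like. Input changes are estimates over 3 KO and 2 WT libraries. Each ratio divides an unstated quantity and rests on 1 library per genotype and time. The part that noise of single libraries has in the width of the ratios was not tested. No tested member was past 2-fold in the input; the log2 fold changes ran from -0.60 to 0.70. Of the 90 tested genes with a ratio above 1.5, 34 (37.8%) had a higher input level in KO, with a median log2 fold change of -0.07. Of the 174 with a ratio below 1 over 1.5, 79 (45.4%) did, with a median of -0.03. Over all 655 tested members it was 265 (40.5%), with a median of -0.04. Spearman's correlation between the log2 ratio and the input log2 fold change was -0.023 over 655 genes. Among m6Am genes 45 of 94 were higher in KO, with a median of -0.02, and among the other starts 220 of 561, with a median of -0.05.

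**Figure D5:**
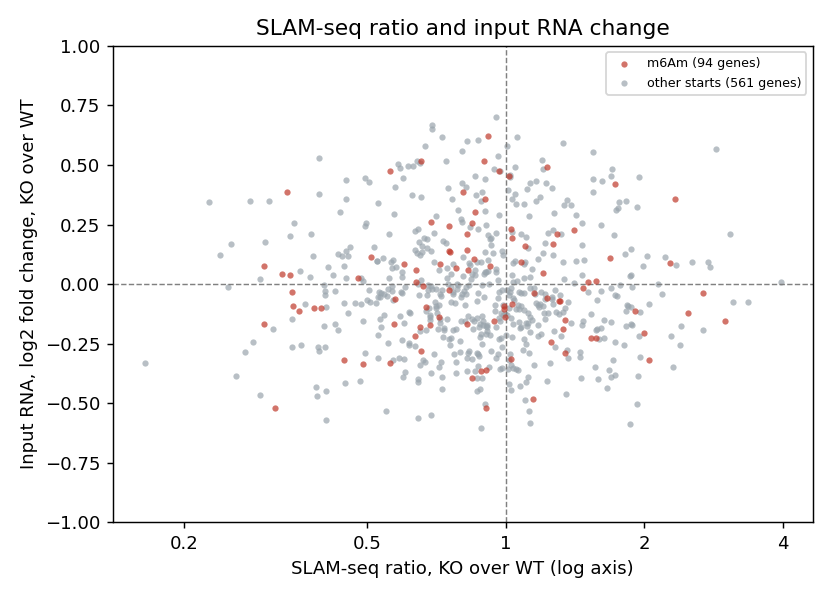
Log2 fold change of input RNA, KO over WT, against the SLAM-seq ratio on a log axis for 94 m6Am genes and 561 genes of other starts tested in the input. Ratios spread over more than 4 log2 units, from 0.164 to 3.96, while input changes lie between -0.60 and 0.70 and show no slope with the ratio. The ratios are without replicates and the input changes are estimates over replicate libraries, so the widths are not like for like.

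Translational efficiency could be set beside the ratio for few genes. The authors' deposited table of efficiency shares 24 genes with the SLAM-seq table, 9 of them m6Am, and gives each the same start class. None of the 24 had an adjusted p under 0.05 in the authors' deposited table, against 2 of 764 genes (0.262%), and the smallest was 0.487, for CCT5. For CCT5 that table gives a log2 fold change of 0.70 (SE 0.32), beside a ratio of 0.356. HNRNPC, with a ratio of 0.339, is given there at -0.29 (SE 0.37), and MADD, the highest of the 24 by ratio at 1.87, at -1.04 (SE 0.53); both were singled out after their values were seen. Of the 24 genes 13 had a ratio above 1, and 9 a higher efficiency in KO. Spearman's correlation between the 2 measures over these genes was -0.223, and the efficiency values rest in part on the input libraries described above.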

How the data were processed

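The authors' deposited SLAM-seq table gives 1 ratio (KO over WT) per gene, with a start class. The deposited input table holds read counts per Ensembl gene. The m6A lists give single DRACH positions with counts of substituted reads, per the file headers. The deposited efficiency table holds log2 fold changes, p-values and a mean signal, with DESeq2's column names per the file headers. The deposited m6Am regions carry a score, which was not used. Per the submitters' processing notes, the tools were STAR, BWA 0.7.17, deepTools and bedtools, with GRCh38, hg38 and mm10 as builds; which tool made which file is not given in the sources at hand. All input columns matched a sample by title, and 0 were left over.

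KO and WT input counts were compared by edgeR 4.0.16 (R 4.3.3, TMM, filterByExpr, robust quasi-likelihood F test, two-sided, Benjamini-Hochberg over all genes, threshold 0.05), checked on simulated counts; DESeq2 1.42.0 was an alternative. P-values measure only the spread between libraries, which may be technical, as the labels name no separate cultures. Replicate pairs differed by more than sampling noise (chi-square per degree of freedom 2.87 to 8.17). CPM were taken on raw totals, with no length correction. Replicate numbers shared by KO and WT were taken only as numbers: deviations of same-numbered libraries correlated at 0.161 and -0.0033.

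Of 666 entries 661 matched RefSeq (GRCh38.p14) by accession and the rest by symbol; 17 have another symbol there. Listed starts are 81 bases past the start of the deposited window. Sequences are RefSeq's. Text names the 10 highest and 10 lowest ratios, 5 of each among m6Am genes, the ends of each list of at least 5 members, members of smaller lists, the 5 genes with most m6A positions, fixed enzymes and the 3 smallest input p. Some of these items are not reported here. The members, lists and rules were chosen with earlier results of these data known. Tables were joined in Python 3.11.15 (pandas 2.3.3, numpy 2.4.6, scipy 1.17.1) and plotted with matplotlib 3.10.9.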

Additional observations from a re-analysis of the deposited data

How the results depend on the processing

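Across the other choices of entries, input filter, strand, class letters, comparator, input library and m6A list, the medians of the start classes, the m6Am difference over all genes and in the lowest tier of input, and the differences between the outer tiers and between the outer m6A bins kept their sign. The alternatives reuse the same ratios, so a kept sign alone does not establish a difference. Each of these differences as reported was smaller than its tolerance, a log2 width taken from the spread of ratios across genes. The tolerance was 0.18 for the m6Am difference over all genes and 0.43 in the lowest tier. It was 0.13 between the outer tiers and 0.18 between the outer m6A bins. No alternative was run for the medians of single tiers or bins. The m6Am median minus that of the other starts lay between -0.10 (A starts alone) and -0.0001 (each gene once), and the highest minus the lowest m6A bin between -0.21 and -0.03. The count of ratios depended on the fold: at the lower fold tried 144 genes lay above it, and 27 lay above 2, against 93 above 1.5, while 82 lay below 1 over 2, against 177 below 1 over 1.5. The plus-strand, listed-start region, turned-letter and median-centred settings were chosen after seeing the data.

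In the input, DESeq2 called 15 of all genes, edgeR without a filter 152 and edgeR with the replicate block 3, against 5. Leaving out each library in turn gave from 2 to 1912 calls, with 1912 without WT replicate 2 and 53 without WT replicate 1. Among members, DESeq2 called 1, edgeR without a filter 18 and the replicate block 0, and leaving out each library gave from 0 to 181. Those fits with 1 WT library assume that it varies like the KO libraries. The cause of these differences was not tested. With 1 SLAM-seq library per genotype and time, a ratio has no error of its own, and a count of 3 limits what the input can show to 0.503 to 0.665 CPM.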
